A study of Mus musculus with 6 samples.

Results

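Genes of the Wnt signalling pathway were followed in mouse back skin with and without ultraviolet B light (UVB). The set was taken by name from the array design and holds the Wnt ligands, the R-spondins, the Frizzled, Lrp5, Lrp6 and Lgr receptors, and the secreted inhibitors of the Dkk and Sfrp families with Wif1 and Notum. It also holds the intracellular brakes Axin1, Axin2, Nkd1 and Nkd2 and the transcription factors Tcf7, Tcf7l1, Tcf7l2 and Lef1. By this rule 71 of 55681 probes were members, and they stood for 56 of 36095 target names. The rule itself uses names and no measured value.

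The animals were male C57BL/6 mice aged 6 to 8 weeks, 3 per group, and the backs of all 6 were shaved. Starting 2 days after shaving, the UVB group was anesthetized and given 180 mJ/cm2 per session, with 3 weekly sessions over 2 weeks, while the control group was kept in the dark. Skin RNA (0.2 µg) was hybridised to Agilent arrays in 1 colour, with 3 replicate arrays in each group. Neither the hair cycle stage of the mice nor the time between the last session and sampling is given in the sources used here.

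Wnt proteins are secreted, lipid-modified ligands that bind Frizzled receptors together with Lrp5 or Lrp6. In the canonical branch this binding keeps beta-catenin from being destroyed, and beta-catenin then acts with TCF/LEF factors on target genes, several of which encode brakes on the pathway itself. R-spondins bind Lgr receptors and keep Frizzled receptors at the cell surface. In skin the pathway is known for its part in hair follicle formation, in the start of a new growth phase (anagen) and in hair shaft differentiation.

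Promoter sequence was set beside the expression values because TCF/LEF factors bind a short DNA word. The motif CTTTGAA and its variants CTTTGAT or CTTTGTA or CTTTGTT were searched on both strands in windows from 250 bases before to 50 bases after the start of each gene (RefSeq, assembly GRCm38.p6). Of 37 members with an entry in that table, 7 held a match (18.9%), namely Dkk1, Fzd7, Lef1, Tcf7l2, Wnt11, Wnt3 and Wnt5b, and 5121 of 27025 genes in all held one (18.9%). A gene was counted where any of its entries held a match. Of the 5 members with a promoter entry that passed the expression test, Wnt11 and Wnt3 held one, and that of Wnt3 lay after the start. A match is a description of the letters only, and 19 members had no entry. The sequences shown are those of Wnt11, which rose after UVB, of Lef1, the factor of the hair shaft precursors, and of Dkk1, which held 2 matches. They were taken from an entry with a match before its start, which need not be the main start of the gene. Each runs 5′ to 3′ on the gene's own strand over 100 bases upstream of the start (bases 100 to 1 before it for Wnt11, 200 to 101 for Lef1 and 150 to 51 for Dkk1), from chr7:98835012-98835111 (+) for Wnt11, chr3:131156094-131156193 (+) for Lef1 and chr19:30549547-30549646 (−) for Dkk1, with the match in capitals.
Wnt11: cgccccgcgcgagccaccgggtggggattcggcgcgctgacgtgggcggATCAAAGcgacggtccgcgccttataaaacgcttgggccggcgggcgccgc
Lef1: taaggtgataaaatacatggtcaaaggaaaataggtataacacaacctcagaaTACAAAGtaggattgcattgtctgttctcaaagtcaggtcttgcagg
Dkk1: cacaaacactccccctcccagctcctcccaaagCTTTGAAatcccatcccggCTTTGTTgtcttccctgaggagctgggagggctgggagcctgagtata

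Levels are given for each array as the log2 signal minus that array's 75th percentile, so that 0 is a bright probe and negative values are dimmer ones. Each gene stands by its brightest tested probe, differences are UVB minus control ± SE from limma with 3 arrays per group, and a change was called at a Benjamini-Hochberg adjusted p under 0.05 over all 24362 targets tested. Only probes that 3 or more of the 6 arrays showed well above background were tested. Levels of different genes are not compared, because probes differ in brightness. Since whole skin was measured, fewer cells of a type and less RNA per cell cannot be told apart.

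After UVB, most Wnt pathway genes did not pass the test. Wnt10b, Wnt3, Rspo3, Lgr6 and Tcf7 fell, and Wnt11, Wnt8a and Notum rose. Of these, Wnt8a was well above background on 1 control array and 3 UVB arrays, so it was tested only because of the group where it was higher. Of the 56 genes 47 were tested, of which 3 were higher, 5 were lower and 39 did not pass. That is 17.0% of the tested members, where 12.6% of all targets passed (5.56% higher and 7.03% lower). The differences of 28 members were negative and those of 19 positive, with a median of -0.23 on the log2 scale against -0.04 over all targets. At an unadjusted p under 0.05, 7 members lay higher and 17 lower, 24 of 47 in all, where 31.5% of all targets did so (13.6% higher and 18.0% lower). The 3 control and 3 UVB values did not overlap in 25 members, 9 higher and 16 lower, or 53.2%, against 38.5% of all targets (15.9% higher and 22.6% lower).

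Counts of this size moved with single arrays. Without control replicate 1 or 2, none of the 3 rises passed. Without control replicate 2 the only member called was Rspo3, and without UVB replicate 1 the calls were Notum, Wnt8a and Rspo1. Leaving out control replicate 3, UVB replicate 2 or UVB replicate 3 left 4, 4 and 5 of the 8 calls. With normexp background correction, which adds an offset to every signal, all 8 passed together with 8 other members, and 20.7% of all targets passed.

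**Figure D1:**
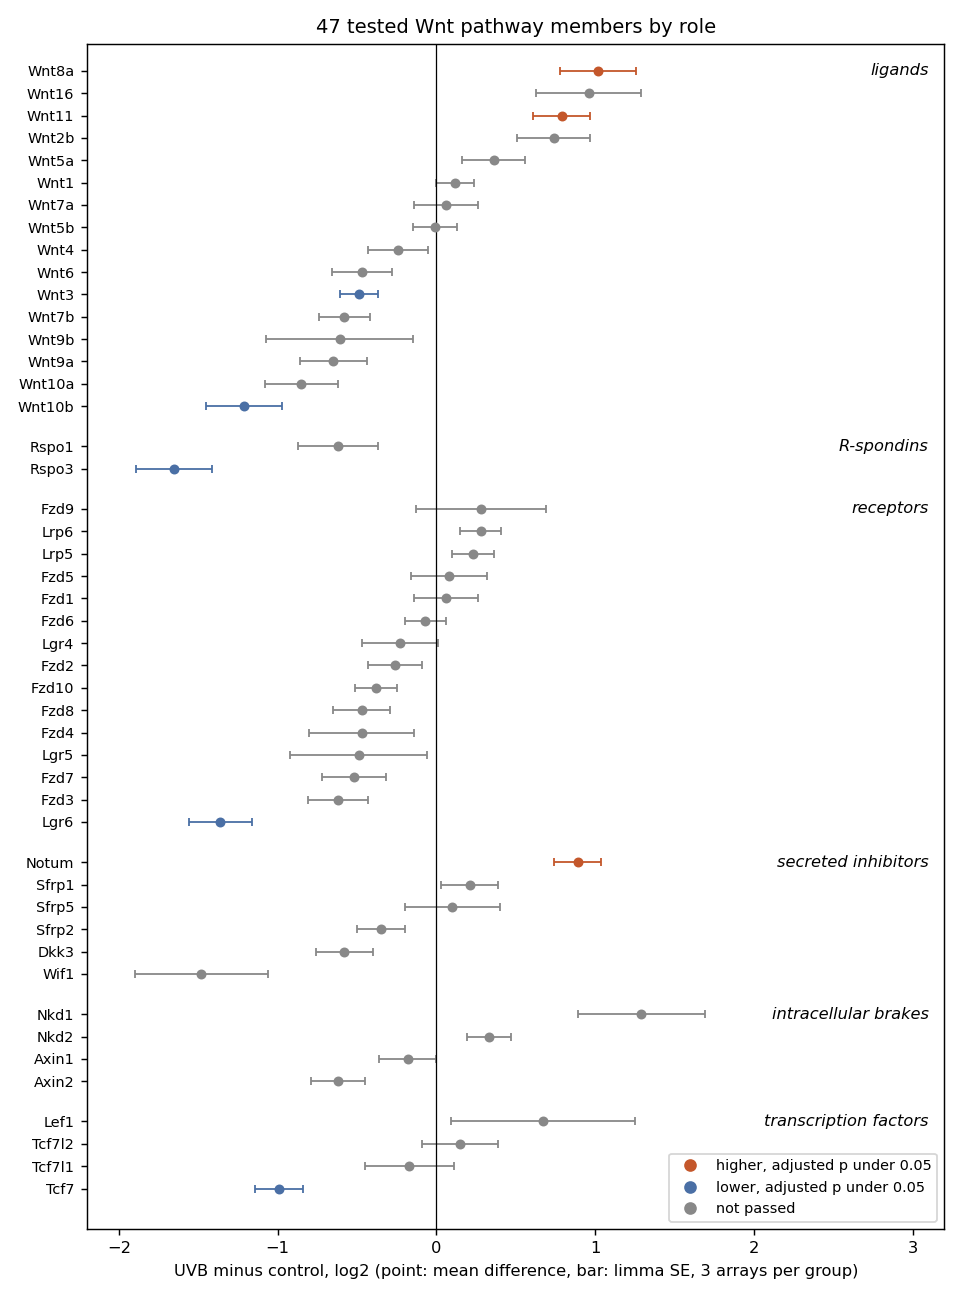
UVB minus control difference (log2) of the 47 tested members, grouped by role; points are mean differences over 3 arrays per group and bars are limma standard errors. The 3 orange points (Wnt8a, Wnt11, Notum) and the 5 blue points (Wnt10b, Wnt3, Rspo3, Lgr6, Tcf7) passed at an adjusted p under 0.05, and the 39 grey points did not.

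Among the 19 Wnt ligands, 16 were tested, 2 rose, 2 fell and 12 did not pass, with a median difference of -0.12. Thus 25% of the tested ligands passed, against 12.6% of all targets, whose median was -0.04. Wnt10b, a canonical ligand that can drive resting follicles into anagen, lay at -2.16, -1.86 and -2.24 on control arrays 1 to 3 and at -3.38, -3.68 and -2.85 on UVB arrays 1 to 3. Every UVB array was below every control array, and UVB replicate 3 was the nearest to the controls. The difference was -1.21 ± 0.24, or 2.32-fold lower (limma adjusted p = 0.0260). It passed without UVB replicate 3 (adjusted p = 0.0143) but not without any other single array (0.0571 to 0.0975), and it was -0.43 with normexp. The Wnt10b probe lies at chr15:98602209-98602268 of the mouse build mm9. On the same chromosome, at chr15:98624201-98624260, lies the probe of Wnt1, whose difference was 0.12 ± 0.12 (adjusted p = 0.535).

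Wnt3, a canonical ligand made by hair follicle epithelium, lay at 2.37, 2.43 and 2.39 in controls and at 1.87, 2.05 and 1.80 after UVB. The controls were within 0.03 (SD) of each other and the UVB values lay apart below them. The difference was small, -0.49 ± 0.12, or 1.40-fold lower (limma adjusted p = 0.0461). It did not pass in any of the 6 fits with 1 array left out (adjusted p = 0.0570 to 0.160), with median centring (0.0618) or with no filter on dim probes (0.0812), nor in the fit across probes (0.0533). Its probe is at chr11:103679038-103679097 of mm9.

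Wnt11, a ligand best known for non-canonical signalling, rose. It lay at -1.40, -1.59 and -1.51 in controls and at -0.58, -1.05 and -0.48 after UVB, with UVB replicate 2 the lowest of the 3 but still above all controls. The difference was 0.79 ± 0.18, or 1.73-fold (limma adjusted p = 0.0371, probe at chr7:106001985-106002045 of mm9). It passed without UVB replicate 2 (adjusted p = 0.0264) and with no other array left out (0.0722 to 0.132).

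Wnt8a was the dimmest member that passed. It lay at -4.75, -5.04 and -5.28 in controls and at -4.44, -3.90 and -3.68 after UVB, well above background on 1 control array and on 3 UVB arrays. It thus met the filter through the UVB arrays, with controls mostly at background, and it was not tested when probes had to be well above background on all 6 arrays. The groups did not overlap, and the fitted difference was 1.02 ± 0.24 (limma adjusted p = 0.0426), or 0.54 with normexp, with no fold given. It passed without UVB replicate 1 only (adjusted p = 0.0435, otherwise 0.0619 to 0.132), and not with a trended prior (0.0758). Of the 6 members not well above background on any array, Dkk1, Rspo2 and Wnt2 also lay apart and higher after UVB. Their differences were 0.59, 0.57 and 0.53. Rspo4 (0.59) and Dkk4 (0.36) overlapped. Wnt8b lay apart and lower (-0.36), while its other probe overlapped with a positive difference. The subtracted 75th percentile was lower on every UVB array (signal of 301.8 to 351.9) than on every control array (362.7 to 518.8). Before scaling, the Wnt8a signal was 13.5, 15.7 and 12.4 in controls and 16.2, 21.1 and 23.5 after UVB. How much of the Wnt8a difference such an offset holds was not tested.

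Several further ligands lay apart between the groups without passing. Wnt10a, a canonical ligand of follicle and epidermis, lay at 4.79, 4.93 and 5.39 in controls and at 4.29, 4.44 and 3.85 after UVB, a difference of -0.85 ± 0.23 (limma adjusted p = 0.0589). Wnt7b, a ligand of follicle keratinocytes, lay at 0.42, 0.40 and 0.77 against -0.20, 0.14 and -0.09, a difference of -0.58 ± 0.16 (adjusted p = 0.0666). In both genes all UVB arrays were below all control arrays. Both passed with normexp, with probes well above background on all 6 arrays and with a trended and robust prior. Neither passed in a fit with 1 array left out. Wnt9a stood at -0.65 ± 0.21 in the same direction, and at -0.07 with normexp.

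Wnt16 and Wnt2b lay apart in the other direction. Wnt16 was at -1.57, -1.82 and -2.80 in controls and at -1.31, -0.96 and -1.04 after UVB, 0.96 ± 0.33 higher (limma adjusted p = 0.103), and its other probe gave 0.53 ± 0.21. Wnt2b stood at 0.74 ± 0.23 (adjusted p = 0.0797) but was well above background on only 1 control and 2 UVB arrays. Among the alternatives, Wnt16 and Wnt2b passed with normexp only. Wnt5a, a non-canonical ligand of the dermis and dermal papilla, lay at 0.74, 0.30 and 0.52 against 0.72, 0.68 and 1.23, a difference of 0.36 ± 0.20 in which the groups overlapped (adjusted p = 0.273). Wnt6, whose mm9 probe lies at chr1:74831461-74831520 near that of Wnt10a at chr1:74850633-74850692, stood at -0.47 ± 0.19 with overlapping groups (adjusted p = 0.152). Wnt4, Wnt5b, Wnt7a and Wnt9b gave -0.24, -0.01, 0.06 and -0.61, with standard errors of 0.19, 0.14, 0.20 and 0.46. Wnt2 and Wnt8b were not well above background on any array, and Wnt3a was on 1 control array only, so these ligands were not tested.

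**Figure D2:**
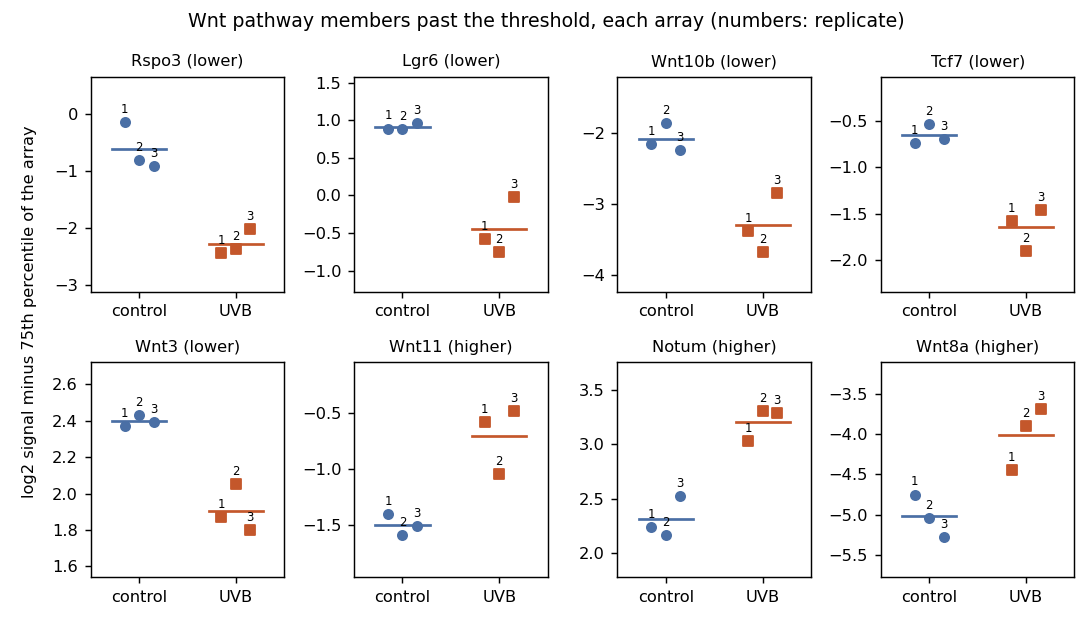
Level on each array (log2 signal minus the array's 75th percentile) of the 8 members that passed; blue circles are control mice, orange squares are UVB mice, digits are replicate numbers and lines are group means. In each panel the 3 UVB values lie on one side of the 3 control values, for example -2.44 to -2.02 against -0.91 to -0.14 for Rspo3.

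R-spondins amplify Wnt signals through Lgr receptors, and Rspo3 fell. It lay at -0.14, -0.80 and -0.91 in controls and at -2.44, -2.36 and -2.02 after UVB. The UVB arrays lay close together and far below the controls, of which replicate 1 was the highest. The difference was -1.65 ± 0.24, or 3.15-fold lower (limma adjusted p = 0.0117, probe at chr10:29172930-29172989 of mm9), and -1.05 with normexp. It passed with each array left out except UVB replicate 1 (adjusted p = 0.0506).

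Rspo1 lay at -2.76, -2.66 and -2.69 in controls and at -2.77, -3.70 and -3.51 after UVB. UVB replicate 1 was level with the controls, while the other 2 UVB arrays were lower. The difference was -0.62 ± 0.25 (limma adjusted p = 0.146), -0.90 without UVB replicate 1 (0.0396) and -0.08 with normexp. Rspo2 and Rspo4 were not well above background on any array.

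Among the 15 receptors, all of which were tested, Lgr6 fell and the other 14 did not pass, with a median of -0.26. That is 6.67% of the receptors, where 12.6% of all targets passed. Lgr6, an R-spondin receptor that marks stem cells of the upper follicle, lay at 0.89, 0.88 and 0.96 in controls and at -0.58, -0.75 and -0.02 after UVB. The controls were almost equal, and UVB replicate 3 was the nearest to them. The difference was -1.36 ± 0.20, or 2.57-fold lower (limma adjusted p = 0.0131, probe at chr1:136880538-136880597 of mm9). The call was lost on leaving out control replicate 2 (adjusted p = 0.0546) or UVB replicate 1 (0.0550). A second, dimmer Lgr6 probe gave -0.33 ± 0.29 (adjusted p = 0.501 across probes), and the mean of both probes gave -0.84 (0.0559).

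Lgr5, the receptor that marks stem cells of the lower bulge and is also active in growing follicles, lay at 0.17, 0.44 and -0.19 in controls and at -0.78, -0.90 and 0.63 after UVB. UVB replicates 1 and 2 were below all controls and UVB replicate 3 was above all of them. The difference was -0.49 ± 0.43 (limma adjusted p = 0.481). Lgr4 stood at -0.23 ± 0.24, again with UVB replicate 3 above and the other UVB arrays below the controls.

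None of the 10 Frizzled receptors passed, with 4 of them lower at an unadjusted p under 0.05, a mark that 18.0% of all targets met in that direction. In 7 the difference was negative, and the median was -0.32. Fzd3, which also serves planar polarity, lay at -0.11, -0.56 and -0.48 against -1.17, -1.13 and -0.73, apart and lower by -0.62 ± 0.19 (limma adjusted p = 0.0772). Fzd10 lay at 3.71, 3.81 and 3.68 against 3.42, 3.46 and 3.17, apart and lower by -0.38 ± 0.13 (adjusted p = 0.101). Among the alternatives, Fzd3 passed with median centring, and Fzd10 with normexp and with a trended and robust prior. Fzd7 stood at -0.52 ± 0.20 on its brighter and -0.47 ± 0.25 on its dimmer probe, and passed without control replicate 3 only (-0.73, 0.0469).

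Of the other Frizzled receptors, Fzd2, Fzd4, Fzd6 and Fzd8 stood at -0.26, -0.47, -0.07 and -0.47. Fzd1 and Fzd9 stood at 0.06 and 0.28, and the probes of Fzd5 disagreed in sign (0.08 ± 0.24 and -0.12 ± 0.20). In all 7 of these receptors the control and UVB values overlapped. The co-receptors Lrp5 and Lrp6 lay apart with UVB above control, at 0.23 ± 0.13 and 0.28 ± 0.13, without passing (adjusted p = 0.298 and 0.194), and the second Lrp6 probe overlapped (0.11 ± 0.17).

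Of the 10 secreted inhibitors 6 were tested, 1 rose and 5 did not pass, with a median of -0.12. That is 16.7% of those tested, where 12.6% of all targets passed. Notum, an enzyme that removes the lipid from Wnt proteins and so inactivates them, lay at 2.24, 2.17 and 2.53 in controls and at 3.03, 3.31 and 3.29 after UVB. All UVB arrays were above all controls, with UVB replicate 1 the nearest to them. The difference was 0.89 ± 0.15, or 1.86-fold (limma adjusted p = 0.0181, probe at chr11:120515209-120515268 of mm9). The call ended with control replicate 1 (adjusted p = 0.0551), control replicate 2 (0.0777) or UVB replicate 2 (0.0531) left out, with differences of 0.78 to 1.00 over all alternatives.

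Wif1, which binds Wnt proteins outside the cell, lay at -0.16, 0.21 and -0.20 in controls and at -1.29, -2.50 and -0.81 after UVB. The groups were apart, but the UVB arrays spread widely (SD 0.87, against 0.23 in controls). The difference of -1.48 ± 0.42 did not pass (limma adjusted p = 0.0696), and without UVB replicate 3 it was -1.84 (0.0463). Dkk3, a divergent member of the Dickkopf family, lay at 1.64, 1.77 and 1.55 against 1.05, 0.78 and 1.39, also apart, at -0.58 ± 0.18 (adjusted p = 0.0840). It too passed without UVB replicate 3 only among the fits that left out 1 array (-0.74, 0.0477). Wif1 and Dkk3 also passed with median centring, with normexp and with a trended and robust prior.

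The remaining inhibitors gave little signal or overlapped. Dkk1, a blocker of Lrp5 and Lrp6 that is itself a known Wnt target, reached a level well above background on no array, at -6.96, -7.36 and -7.21 against -6.74, -6.40 and -6.62, although its promoter window held 2 matches to the TCF/LEF motif. Sfrp2 was well above background on all 3 control arrays and on no UVB array, which bounds the difference at 1.05-fold lower or more. It did not pass (adjusted p = 0.174), and with normexp the sign turned (0.21). Sfrp1 and Sfrp5 stood at 0.21 ± 0.18 and 0.10 ± 0.30. Dkk2, Dkk4 and Sfrp4 were not tested.

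The intracellular brakes are of interest because Axin2 and Nkd1 are among the most widely used readouts of canonical Wnt signalling. None of the 4 passed. At an unadjusted p under 0.05, Nkd1 and Nkd2 lay higher and Axin2 lower, where 13.6% of all targets lay higher and 18.0% lower. Axin2, a scaffold of the complex that destroys beta-catenin, lay at -1.74, -1.60 and -1.85 in controls and at -2.03, -2.51 and -2.50 after UVB. The groups were apart, with a difference of -0.62 ± 0.17 (limma adjusted p = 0.0635), while the second Axin2 probe overlapped at -0.18 ± 0.15. The brighter probe passed with quantile normalization (adjusted p = 0.0420), with median centring (0.0449), in the deposited table (0.0417) and when only probes well above background on all 6 arrays were kept (0.0464). Quantile normalization and the deposited table gave the same difference, -0.71, and normexp gave -0.25.

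Nkd1, which binds Dishevelled, lay on the opposite side. It was at -3.37, -3.20 and -3.70 in controls and at -2.04, -3.00 and -1.37 after UVB. UVB replicate 2 was just above the highest control, and UVB replicates 1 and 3 were far above. The difference was 1.29 ± 0.40 (limma adjusted p = 0.0869), 1.72 without UVB replicate 2 (0.0319) and 0.81 with normexp, and it passed in both of these alternatives. Its second probe was well above background on 1 array and was not tested.

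Nkd2 lay at 2.80, 2.63 and 2.75 against 3.15, 2.86 and 3.16, apart and higher by 0.33 ± 0.14 (limma adjusted p = 0.157). On its second probe UVB replicate 2 was below all controls and the other UVB arrays were above them (-0.39, -1.50 and 0.55 against -0.93, -0.75 and -1.04). Axin1, the constitutive partner of Axin2, overlapped (-0.18 ± 0.18). The differences of Axin2 and Nkd1 thus had opposite signs in the same skin, and neither passed.

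Of the 4 transcription factors, Tcf7 fell and the others did not pass (25% passed, against 12.6% of all targets). Tcf7, which encodes TCF1, lay at -0.74, -0.54 and -0.70 in controls and at -1.58, -1.90 and -1.46 after UVB. The groups were well apart, and the difference was -0.99 ± 0.15, or 1.98-fold lower (limma adjusted p = 0.0141, probe at chr11:52066114-52066173 of mm9), with -0.65 under normexp. Leaving out control replicate 2 (adjusted p = 0.0656) or UVB replicate 1 (0.0517) ended the call. A second Tcf7 probe, well above background on 2 control arrays and on no UVB array, was bounded at 1.12-fold lower or more and was not tested.

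Lef1, the TCF/LEF factor of hair matrix and shaft precursors, varied more among the UVB mice than between the groups. It lay at -0.70, -0.76 and -1.49 in controls and at 0.16, -1.66 and 0.54 after UVB. UVB replicates 1 and 3 were above every control, and UVB replicate 2 was below every control. The difference was 0.67 ± 0.58 (limma adjusted p = 0.480), with 0.88 ± 0.54 on the second probe, on which UVB replicate 2 (-2.91) again stood below UVB replicates 1 (-1.57) and 3 (-0.82). Tcf7l1, a factor of follicle stem cells, and Tcf7l2 overlapped at -0.17 ± 0.28 and 0.15 ± 0.24, and the other probes of Tcf7l2 gave 0.07 and 0.16.

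**Figure D3:**
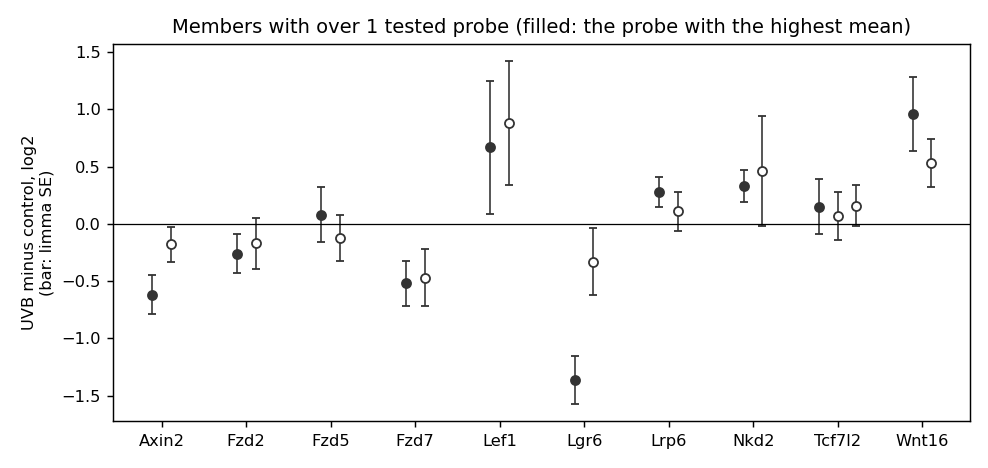
UVB minus control difference (log2, bars are limma standard errors) for each tested probe of the 10 members with more than 1; filled points are the brightest probe of the gene and open points the others. The probes share a sign in 9 genes, Fzd5 is the exception, and those of Lgr6 lie farthest apart (-1.36 and -0.33).

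Probe by probe, 58 of the 71 member probes were tested, of which 3 were higher, 4 were lower and 51 did not pass in a fit across all probes, where 11.2% of all tested probes were called (5.10% higher and 6.12% lower). With control replicate 2 or UVB replicate 1 left out the count of lower probes was 1, and with control replicate 1, control replicate 2 or the third UVB array left out the count of higher probes was 0. The difference between probes of a gene was not tested. Only 10 of the 47 tested genes had more than 1 tested probe.

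Hair growth genes were read beside the Wnt pathway, because follicles cycle between rest, growth and regression and the pathway is tied to that cycle. Of 87 listed hair cycle genes 77 were tested, 26 rose and 6 fell (12.6% of all targets passed). Of the inner root sheath genes 10 of 11 were tested and 10 rose, and of the hair shaft keratins 12 of 13 were tested and 9 rose. Part of them met the filter through the UVB arrays, where they were high. Kept to probes well above background on all 6 arrays, 6 inner root sheath genes were tested and 6 rose, by 2.52 to 9.64 on the log2 scale, and of 7 hair shaft keratins 4 rose, by 5.39 to 8.75. Trichohyalin (Tchh), an inner root sheath protein, lay at -0.10, -0.13 and -0.46 in controls and at 6.97, 6.23 and 8.12 after UVB, a rise of 7.33 ± 0.46 (limma adjusted p = 0.00223). The cortex keratin Krt33a rose by 8.75 ± 0.66 (adjusted p = 0.00250).

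Tchhl1, a relative of trichohyalin, and Krt33b, another cortex keratin, were well above background on none of the control arrays. After UVB Tchhl1 was at least 574-fold higher and Krt33b at least 465-fold, a bound taken between the mean of the bright group and the lowest signal well above background, and one that normexp (6.91 and 6.64 on the log2 scale) did not reach. Control replicate 2 was the highest control for the inner root sheath genes as a whole, at 0.70 above the control mean against 7.51, 6.66 and 8.81 on the UVB arrays.

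The regulators upstream of those products moved less. Of 14 tested regulators of the growing matrix and precortex, 2 rose and 1 fell, with a median of 0.17. Runx1, a transcription factor of the follicle, rose by 1.14 ± 0.17 and the homeobox factor Cux1 fell by 1.14 on the log2 scale (SE 0.22), a call lost when either of control replicates 2 and 3, or of UVB replicates 1 and 2, was left out (adjusted p up to 0.0938). Hoxc13 and Msx2, transcription factors of the matrix and hair shaft that lie close to Lef1 in its known setting, stood at 1.41 ± 0.38 and 1.06 ± 0.35 without passing (limma adjusted p = 0.0613 and 0.0952). Msx2 passed without UVB replicate 2 (0.0428) and with normexp (0.0436). Hoxc13 passed with median centring, with normexp, with probes well above background on all 6 arrays and with a trended and robust prior. It passed in no fit with 1 array left out. Shh, a growth signal of the matrix, was not tested.

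Of 17 bulge and secondary germ genes 1 rose (Tbx1, a transcription factor, 1.14 ± 0.22) and 1 fell (Postn, a matrix protein, -1.31 ± 0.16), with a median of -0.32. Tbx1 did not pass without control replicate 2 or any 1 UVB array (adjusted p up to 0.0810). Of 13 tested dermal papilla genes 3 rose, among them the factor Trps1 (1.33 ± 0.15) and the retinoid-binding protein Crabp1 (2.19 ± 0.33; 1.41 with normexp). Of 11 tested genes of the regression phase (catagen) 1 rose and 4 fell, among them the neurotrophin receptor Ngfr (-2.67 ± 0.27) and the neurotrophin Ntf3 (-1.35 ± 0.18). Without control replicate 2 or UVB replicate 1, 2 genes of this list fell, and with any 1 array left out none rose.

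**Figure D4:**
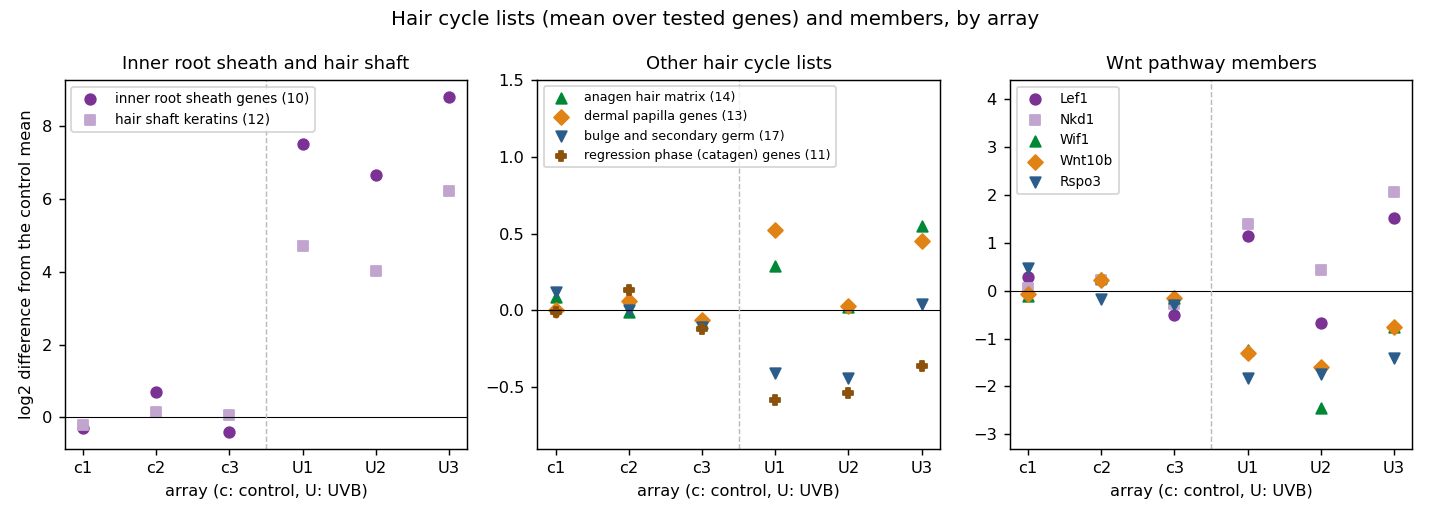
Difference from the control mean (log2) on each array for inner root sheath genes and hair shaft keratins (left), 4 other hair cycle lists (middle) and 5 members (right); points of the lists are means over the tested genes, whose number is in the key, and scales differ between panels. Inner root sheath genes stand at 7.51, 6.66 and 8.81 on UVB arrays 1 to 3, and on UVB replicate 2 Lef1 lies below the control mean while Nkd1 lies above it.

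Within the UVB group the arrays were not alike, and many members shared an order seen in the hair genes. UVB replicate 3 was the highest and UVB replicate 2 the lowest for 9 of the 10 inner root sheath genes and 10 of the 12 hair shaft keratins. In the other hair cycle lists, 8 of 14 matrix and precortex regulators (57.1%) and 8 of 17 bulge and secondary germ genes (47.1%) had this order. So did 6 of 13 dermal papilla genes (46.2%) and 3 of 11 catagen genes (27.3%). The same order was found in 23 of the 47 members (48.9%) and in 17.0% of all targets, and it was chosen for display after the values were seen, so no test is given. All 4 transcription factors had it, as did 10 of 15 receptors, including Lgr4, Lgr5, Lgr6, Lrp5 and Lrp6, and 2 of the brakes (Nkd1 and Nkd2). By contrast 4 of 16 ligands (Wnt10b, Wnt11, Wnt5a and Wnt5b) and neither R-spondin had it. Among the other pathway genes on the 4 lists that follow, the order was found in 5 of 30 core genes, 1 of 18 secretion and surface genes, 4 of 15 non-canonical genes and 4 of 19 targets. With quantile normalization, median centring, normexp and the deposited table, 24, 19, 22 and 24 members had the order, against 16.2%, 11.5%, 16.1% and 16.1% of all targets. UVB replicate 2 also had the smallest share of spots well above background (54.9%, against 59.6% and 59.1% on UVB replicates 1 and 3). The part of such array differences in the order was not tested.

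The members that passed were mixed in this respect. Lgr6, Wnt10b and Tcf7 were lower after UVB and lay nearest to the controls on UVB replicate 3. Most inner root sheath genes and hair shaft keratins were highest on that array. Wnt11 rose and was highest there. Rspo3, Wnt3, Notum and Wnt8a did not have the full order. On UVB replicate 3, however, Rspo3 (-2.02) was also nearest to the controls and Wnt8a (-3.68) was also highest. Wnt3 went the other way, with UVB replicate 3 (1.80) the farthest from the controls. Notum was highest on UVB replicate 2 (3.31), with replicate 3 at 3.29. With 3 UVB mice, a relation between hair genes and members within the group could not be tested.

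Other genes of the pathway, on 4 lists, were read for the same contrast. Of 98 listed genes 82 were tested, 9 rose and 6 fell, with a median of -0.04. Over all targets 5.56% rose and 7.03% fell, with a median that was also -0.04. In the intracellular core 3 of 30 rose and 2 fell. The corepressor gene Tle3 rose by 0.89 ± 0.11 and the kinase Csnk1e by 0.99 ± 0.15, and Ctnnbip1, an inhibitor of the contact between beta-catenin and TCF, rose by 1.11 ± 0.27 (limma adjusted p = 0.00802, 0.0123 and 0.0472). The corepressors Ctbp1 and Tle4 fell, by 0.55 and 0.62 on the log2 scale, with Tle4 at -0.25 under normexp. Beta-catenin itself (Ctnnb1) lay at 4.15, 4.38 and 4.29 against 4.20, 4.27 and 4.25, a difference of -0.04 ± 0.12. Ctbp1 and Tle4 passed in none of the 6 fits with 1 array left out (adjusted p = 0.0559 to 0.118), and Ctnnbip1 passed in 1 of them, without control replicate 3, while Tle3 and Csnk1e passed in all 6.

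Porcn, the acyltransferase that adds the lipid which Wnt proteins need for secretion, lay at 0.34, 0.41 and 0.53 in controls and at 2.26, 1.90 and 1.47 after UVB. It rose by 1.45 ± 0.21 (limma adjusted p = 0.0121), although not without control replicate 2 (0.0537). Sulf2, an extracellular sulfatase that edits heparan sulfate, lay at 0.41, 0.53 and 0.56 against 2.32, 2.25 and 2.08 and rose by 1.72 ± 0.12 (0.00241), also with each array left out. The glypican Gpc3 (-1.56 ± 0.23) and the Frizzled ligand Ndp (-0.85 ± 0.18) fell. With normexp Gpc3 and Ndp stood at -0.60 and -0.10, and Ndp passed without control replicate 3 only among the fits that left out 1 array. On this list of secretion and surface genes, 2 of 18 tested genes rose and 2 fell.

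Of 15 tested planar polarity and other non-canonical genes 2 rose, the cadherin Celsr3 (1.43 ± 0.25; 0.90 with normexp) and the formin Daam1 (0.66 ± 0.14). Celsr3 passed without control replicate 1 or 3 only and Daam1 without control replicate 3 only (adjusted p otherwise up to 0.0774 and 0.120). Of 19 tested Wnt target genes outside the name rule 2 rose and 2 fell. Fgf9, a growth factor, rose by 2.93 ± 0.39 (1.45 with normexp; well above background on 2 control arrays), and Dct, a pigment enzyme, by 2.40 ± 0.20 (limma adjusted p = 0.00918 and 0.00318). Tnfrsf19, a receptor, and Ascl2, a transcription factor, fell by 0.85 and 0.97 on the log2 scale, and passed without UVB replicate 3 and without UVB replicate 2 only (adjusted p otherwise up to 0.0926). Ccnd1 (-0.21) and Myc (-0.65), widely cited targets, did not pass (adjusted p = 0.432 and 0.135), and Sp5 was not tested.

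**Figure D5:**
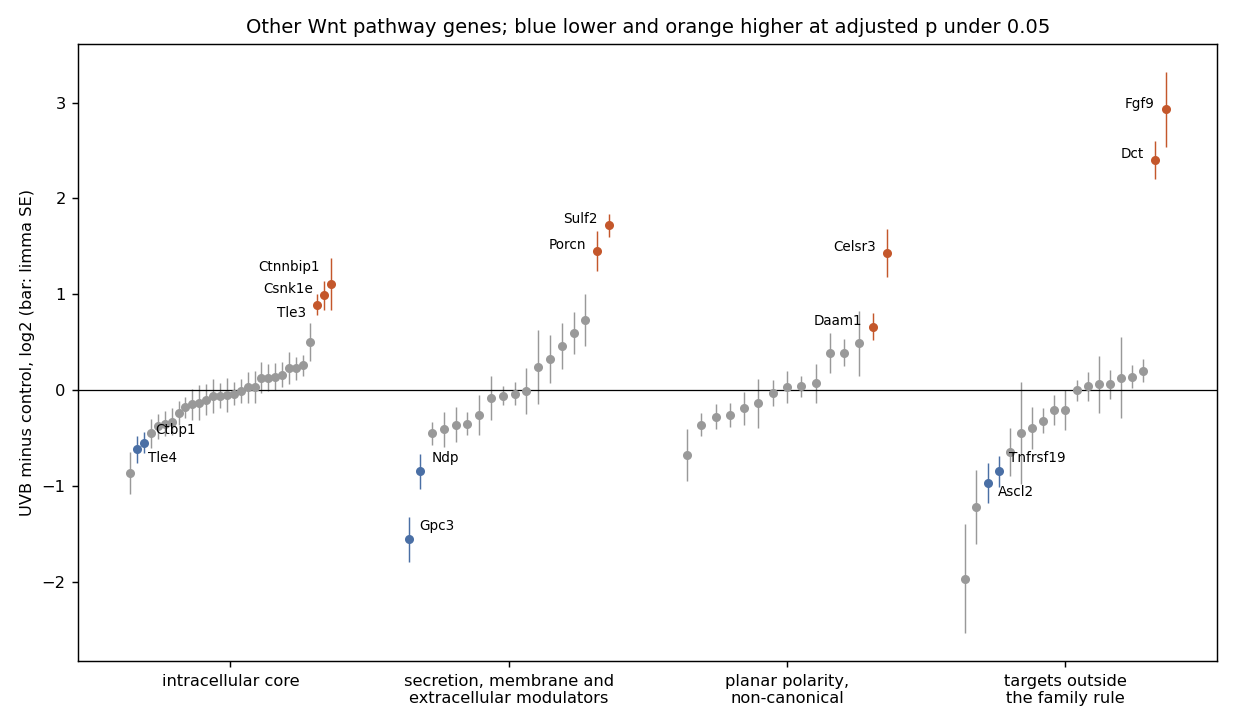
UVB minus control difference (log2, bars are limma standard errors) for the 82 tested pathway genes outside the name rule, in 4 lists and ordered by size within each. The 9 genes that rose (orange) include Fgf9 at 2.93 and Dct at 2.40, and the 6 that fell (blue) include Gpc3 at -1.56.

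Markers of some cell types in skin moved with the groups, so markers are given beside the members (12.6% of all targets passed). Of 8 melanocyte markers, which include Dct, 5 rose, and their summed signal (in units of the array's 75th percentile) was 6.41 to 7.42 in controls and 19.9 to 29.6 after UVB. Of 8 fibroblast markers 4 rose (6.16 to 12.8 against 18.3 to 27.0), and of 8 suprabasal keratinocyte markers 3 rose (2330 to 2860 against 3790 to 4590). Of 7 tested leukocyte markers 5 fell and 1 rose (37.3 to 42.7 against 23.0 to 28.4), and Cd68 was not tested. All 8 basal keratinocyte markers were well enough above background to be tested. Of these 3 fell, and the sums overlapped (1350 to 1640 against 1330 to 1470).

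Of 7 tested sebaceous gland markers 1 fell (38.0 to 76.0 against 21.1 to 32.3). Of 6 tested adipocyte markers 1 rose and 3 fell (6.52 to 8.68 against 7.89 to 30.4), with Adipoq and Plin1 not tested. None of 6 tested skeletal muscle markers (0.79 to 2.69 against 1.36 to 1.60; Ckm and Actn3 not tested) or of 4 tested endothelial markers (9.13 to 10.6 against 11.3 to 14.0; Cdh5, Tek, Emcn and Tie1 not tested) passed in limma (unadjusted p under 0.05 in 1 and 0 of them). The part of these cell types in the members' differences was not tested.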

How the data were processed

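RNA from back skin of 6 mice was measured on 6 Agilent arrays in 1 colour. Per the submitters' processing notes and the file headers, spots were read with Agilent Feature Extraction 10.7.1.1, and the deposited scanner files hold background-corrected intensity that is not scaled between arrays. The authors also deposited a table of log2 values. How it was made is not given in these sources. Each column had a median of 4.95 and correlated with its own array at r of 0.99866 or more. Thus only its scale, centring and direction are known, from this comparison, and it served as an alternative. It called the same 9 members as quantile normalization, and 1387 targets were higher in both. These alternatives are therefore not separate checks.

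The log2 intensity minus each array's 75th percentile was used. At that percentile the signal was 362.7, 518.8 and 484 in controls 1 to 3 and 351.9, 314.5 and 301.8 in UVB replicates 1 to 3. Control spots and outlier flags (135 to 274 per array) were left out and spots of a probe were averaged. Spots well above background made up 60.9%, 63.3% and 61.7% in controls 1 to 3 and 59.6%, 54.9% and 59.1% in UVB replicates 1 to 3. In this share and in the 75th percentile every UVB array lay below every control array. Of the spots 0 were saturated. Precision is limited by having 3 arrays per group. Probes well above background on at least 3 of 6 arrays were tested with limma 3.58.1 in R 4.3.3, with Benjamini-Hochberg adjustment, two-sided, and each gene stood by its probe with the highest mean. For names, 26582 of 55681 probes matched a RefSeq accession and 3094 a symbol or synonym (assembly GRCm38.p6), and the others kept the name in the files. The 71 member probes were chosen by the name in the files. Coordinates are those of the files (mm9).

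Per the labels each group held 3 mice. The 6 arrays shared 1 slide and scan time, which leaves no slide effect to block on. Members are named by a rule: those that passed, 11 widely studied members, and in each role the 2 of smallest p that did not pass; others, and pathway genes beyond the 2 of smallest p per list, were added after their values were seen. The members and lists were chosen with earlier results of these data known. The steps were tested on simulated data. The 15 alternatives were quantile, median and normexp (offset 50) processing, the deposited table, 2 filters, the mean of probes, a trended and robust prior, the replicate number as a block, and leaving out each array.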

Additional observations from a re-analysis of the deposited data

How the results depend on the processing

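The depth of this comparison is limited by 3 arrays per group and, for dim probes, by the background. Over all targets 1355 were higher and 1712 lower; normexp gave 2554 higher, and no filter on dim probes gave 1062 lower. Leaving out 1 array gave 474 to 959 higher and 393 to 1064 lower. Member genes, 3 higher and 5 lower, became 6 higher and 10 lower with normexp, 1 higher without the filter, 8 lower with median centring or with probes well above background on all 6 arrays, and 10 lower with a trended and robust prior. With 1 array left out, 0 to 2 were higher and 1 to 6 lower. Member probes, 3 higher and 4 lower, became 6 and 10 with normexp, 1 higher without the filter, and 7, 8 and 9 lower with median centring, the stricter filter and the trended prior, with ranges of 0 to 2 higher and 1 to 5 lower when 1 array was left out. Pathway genes outside the name rule, 9 higher and 6 lower, ranged over 5 to 10 and 1 to 3 with 1 array left out, and hair cycle genes, 26 higher and 6 lower, over 20 to 25 and 3 to 7. Median centring moved the median of all targets to -0.15 and the share of higher among called targets from 44.2% to 34.3%.

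The replicate number as a block gave 484 higher and 313 lower targets, 0 higher and 1 lower member gene (Lgr6, adjusted p = 0.0478), 0 higher and 0 lower member probes, 3 higher and 1 lower outside genes, and 2 lower hair cycle genes. Deviations of same-numbered control and UVB arrays correlated at -0.11, -0.26 and -0.08, and those of differently numbered arrays at -0.03 to 0.14. Deviations within a group of 3 balance each other, so these values cannot settle whether the numbers pair the mice. The labels name no pairs.

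Differences that did not pass changed sign in these cases. With quantile normalization and in the deposited table alike, Ctnnb1 gave 0.03, Fzd5 and Sfrp5 -0.02 and Wnt7a -0.03. With median centring Fzd1 and Wnt7a gave -0.05, Fzd5 -0.03 and Sfrp5 -0.01, and the mean of its probes gave -0.02 for Fzd5. With normexp Sfrp2 gave 0.21, Tcf7l1 0.19, Wnt9b 0.17 and Wnt5b 0.02. With each array left out in turn, the ranges that crossed 0 were Ctnnb1 from -0.10 to 0.02, Fzd1 from -0.15 to 0.18, Fzd5 from -0.12 to 0.31, Fzd6 from -0.14 to 0.02, Fzd9 from -0.13 to 0.64, Sfrp5 from -0.09 to 0.41, Tcf7l1 from -0.40 to 0.13, Tcf7l2 from -0.03 to 0.33, Wnt5b from -0.07 to 0.10 and Wnt7a from -0.11 to 0.25. The cause of these changes was not tested. The 8 called members kept their sign in every alternative run. The order of the UVB arrays under other scalings was an alternative chosen after seeing the data.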
